A study of Homo sapiens with 6 samples.

Results

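Keratins are the filament proteins of epithelia, and 8 keratin genes are followed here in cells of a T cell leukaemia: KRT72, KRT1, KRT73, KRT2, KRT86, KRT8, KRT10 and KRT18. They were found by exact gene name in the authors' deposited table and joined by gene identifier to the raw counts, which hold 63677 genes. By the same naming, 57 further entries are keratin genes and 137 are keratin pseudogenes. The 8 were picked with the levels and changes in these same libraries already known. Their fold changes and adjusted p-values are therefore given as a description of these libraries and carry no weight as a test of the choice. They were proposed as keratins expressed in leukaemic T cells. Of the 8, 5 had enough counts for a comparison, while KRT8, KRT86 and KRT18 had too few counts to test.

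RNA was sequenced from RPMI-8402, a T cell acute lymphoblastic leukaemia line, in 3 libraries from cells given doxycycline and 3 from cells given DMSO, the solvent control. All 6 came from cells that stably carried Cas9 and are labelled with the genotype MYC_KO. In the doxycycline group the drug was used to switch on guide RNAs against MYC, and cells were taken at 72 hours; the DMSO group has the same genotype label and was not given the drug. No group in the labels received doxycycline without guides, so an effect of the drug and an effect of the guides cannot be told apart. Whether the 3 replicates of a group were grown apart is not stated, so the p-values speak for the scatter among these libraries alone, and that scatter may be technical.

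Keratins form filaments as obligate pairs, each of an acidic type I chain and a basic type II chain. KRT1 and KRT2 are type II chains of the upper layers of the epidermis, where KRT10 is the main type I partner of KRT1. KRT72 and KRT73 are type II chains of the inner root sheath of the hair follicle, KRT86 is a type II chain of the hair shaft, and KRT8 and KRT18 are the pair of simple, single-layered epithelia. The type II genes lie together in a cluster on chromosome 12, which also holds KRT18, the sole type I gene there. KRT10 lies in the type I cluster on chromosome 17. In blood cells the main cytoplasmic intermediate filament protein is vimentin.

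Total counts ran from 25819386 to 26214598 in the doxycycline libraries and from 23121255 to 25412493 in the DMSO libraries. At that depth 3 counts correspond to 0.112 to 0.114 CPM (counts as a share of the TMM-scaled library size) in doxycycline and 0.119 to 0.131 CPM in DMSO. These floors, taken as the lowest level worth reading, cover counting error only. A test was made for 15492 genes that passed the filter on low counts. The targeted gene MYC stood at 440 ± 16.0 CPM in doxycycline and 413 ± 8.01 CPM in DMSO (SD, n = 3 each) and was not called (log2 fold change 0.09, edgeR adjusted p = 0.160); it was called higher under scaling by upper quartile (0.14, adjusted p = 0.0357) or by library size (0.14, 0.0281).

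The T cell identity of the line showed in most T cell markers, though not in all. Of 13 marker genes of T cells on the list used here, 0 had no counts at all, and together they summed to between 2663 and 2776 CPM in doxycycline and between 2634 and 2725 CPM in DMSO. CD3E, a chain of the T cell receptor complex, stood at 945 CPM in doxycycline and 976 CPM in DMSO, and LCK, the receptor-proximal kinase, at 640 CPM in doxycycline and 624 CPM in DMSO. CD7 and CD5 rose and CD3G fell, among 12 tested, beside 29.3% called among all tested genes; with GC content and length fitted out CD3G was not called (-0.07, edgeR adjusted p = 0.235). CD5 stood at 274 CPM in doxycycline, against 233 CPM in DMSO (log2 fold change 0.23, edgeR adjusted p = 9.38e-04). Of 17 epithelial markers 4 had enough counts to test, and 5 had 0 counts in every library, EPCAM, KRT14 and KRT19 among them. That list summed to between 8.92 and 10.6 CPM in doxycycline and between 6.55 and 7.48 CPM in DMSO; the part of any epithelial RNA in the results below was not tested.

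All 5 keratin genes with enough counts changed: KRT72, KRT1, KRT73 and KRT2 rose and KRT10 fell in the doxycycline libraries (edgeR quasi-likelihood test, adjusted p under 0.05 over all tested genes). Among all tested genes 29.3% were called, 13.8% as higher, 15.5% as lower and 3.56% as higher by at least 1.5-fold, as KRT72, KRT1 and KRT73 were; because the 8 genes were picked with this contrast known, nothing is read from these shares. The split over all genes hangs on the scaling: 2137 genes were called higher and 2408 lower, against 2871 and 1585 with upper-quartile scaling and 2758 and 1606 with library size only. Without doxycycline replicate 1, doxycycline replicate 2 or DMSO replicate 2, in turn, 3 of the 5 were called, KRT72, KRT1 and KRT73. DESeq2 called the same 3, beside 25.4% of all genes with an adjusted p, and 4 were called with GC content and length fitted out, beside 22.2% of all genes there. The 5 had a median log2 fold change of 0.60, beside 0.00 over all tested genes. Genes at 1 to 10 CPM had a median of 0.10, and genes over 10 CPM one of -0.05. In bulk RNA a change in RNA per cell cannot be told from a change in the share of cells that make it.

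**Figure D1:**
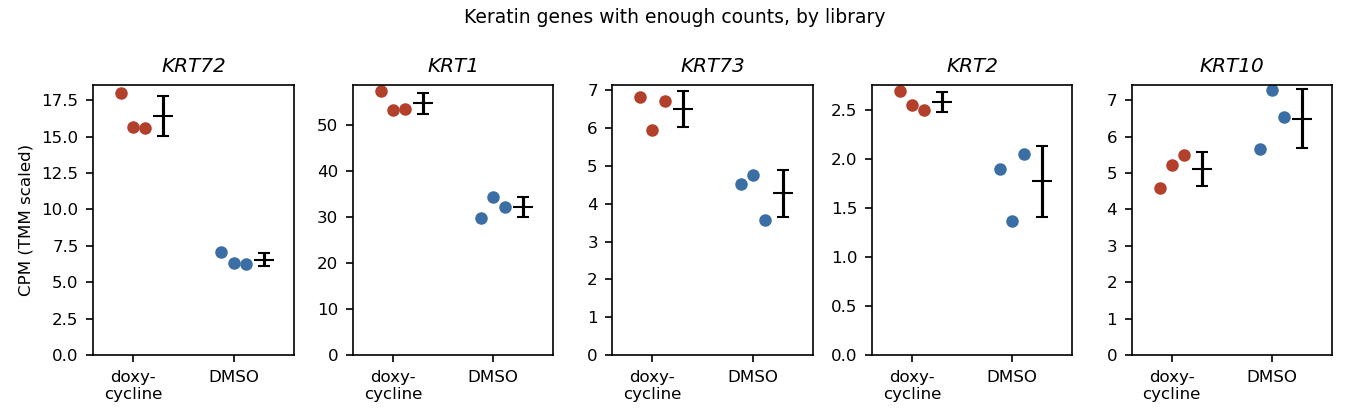
Level of the 5 tested keratin genes in CPM (linear axes from 0) for each doxycycline and DMSO library; points are libraries and black marks are the mean with its SD (n = 3 each). In the first 4 genes every doxycycline library sits above every DMSO library, and for KRT10 every doxycycline library sits below.

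KRT72, the inner root sheath chain with the gene identifier ENSG00000170486, changed most among the 5 tested genes. Its raw counts were 474, 411 and 417 in doxycycline replicates 1, 2 and 3, and 178, 153 and 143 in DMSO replicates 1, 2 and 3. The lowest doxycycline count was thus above the highest DMSO count by a wide margin. In CPM these were 17.99, 15.7 and 15.6 in doxycycline and 7.06, 6.32 and 6.24 in DMSO, with means of 16.4 ± 1.37 CPM in doxycycline and 6.54 ± 0.451 CPM in DMSO (SD, n = 3 each). KRT72 thus differed by 1.32 on the log2 scale (standard error, SE, 0.094; edgeR adjusted p = 2.93e-10), which placed KRT72 at rank 78 among the 15492 genes ordered from the largest rise downwards. Over 16 alternative settings it ran from 1.23 to 1.38 and was called in all 16. In the authors' deposited table, in which 25.4% of genes with an adjusted p pass 0.05, KRT72 has a log2 fold change of 1.32 (DESeq2 adjusted p = 1.25e-22).

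KRT1, the epidermal partner of KRT10 with the identifier ENSG00000167768, was the most abundant keratin in every library. It had 57.3, 53.1 and 53.4 CPM in doxycycline replicates 1, 2 and 3, and 29.8, 34.4 and 32.2 CPM in DMSO replicates 1, 2 and 3. Every doxycycline library was above every DMSO library. The means were 54.6 ± 2.36 CPM in doxycycline and 32.1 ± 2.27 CPM in DMSO (SD, n = 3 each), 0.77 apart on the log2 scale (SE 0.063, edgeR adjusted p = 3.26e-09). It was called in all 16 alternative settings, at 0.71 to 0.82. KRT1 was among the 0.446% of tested genes over 10 CPM that were called higher by at least 1.5-fold. KRT72 was counted there too, but its mean of 11.5 CPM passed 10 CPM only through the doxycycline libraries, with 6.54 CPM in DMSO. Of tested genes at 1 to 10 CPM, 7.84% were called higher by at least 1.5-fold. Both genes were picked with this contrast known, so nothing is read from these shares.

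KRT73, the inner root sheath chain next to KRT72 on the chromosome (ENSG00000186049), rose to 6.83, 5.95 and 6.73 CPM in doxycycline replicates 1, 2 and 3, against 4.52, 4.75 and 3.58 CPM in DMSO replicates 1, 2 and 3. The groups did not overlap, which held for 20.7% of all tested genes in that direction and for 24.8% of those at 1 to 10 CPM. Its log2 fold change was 0.60 (SE 0.124, edgeR adjusted p = 7.71e-04), and it was called in all 16 alternative settings, at 0.49 to 0.67. KRT2, a chain of the outermost living layers of the epidermis (ENSG00000172867), had 71, 67 and 67 counts in doxycycline and 48, 33 and 47 counts in DMSO. The groups did not overlap, and DMSO replicate 2 was the lowest library. KRT2 averaged 2.58 ± 0.099 CPM in doxycycline and 1.77 ± 0.363 CPM in DMSO (SD, n = 3 each), a log2 difference of 0.54 (SE 0.183, edgeR adjusted p = 0.0262). Leaving out DMSO replicate 2 ended the KRT2 call (0.38, edgeR adjusted p = 0.143), as did leaving out doxycycline replicate 1 (0.51, 0.0713), 2 (0.55, 0.0517) or 3 (0.57, 0.0507), dropping DMSO replicate 2 together with doxycycline replicate 1 (0.35, 0.227) and the use of DESeq2 (0.53, 0.120).

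KRT10, a type I chain (ENSG00000186395) and the main partner of KRT1 in epidermis, went the other way. It had 4.59, 5.22 and 5.49 CPM in doxycycline replicates 1, 2 and 3, and 5.67, 7.27 and 6.55 CPM in DMSO replicates 1, 2 and 3. The groups did not overlap, with the highest doxycycline library close below the lowest DMSO library; 21% of all tested genes, and 8.65% of those at 1 to 10 CPM, were lower with no overlap. KRT10 averaged 5.10 ± 0.463 CPM in doxycycline and 6.50 ± 0.801 CPM in DMSO (SD, n = 3 each), a log2 difference of -0.35 (SE 0.120, edgeR adjusted p = 0.0314). That call was lost in 10 of 16 alternative settings, in which the change stayed negative and reached -0.19 on dropping DMSO replicate 2 together with doxycycline replicate 1 (adjusted p = 0.346). The 10 include upper-quartile scaling (-0.30, adjusted p = 0.0626), library size alone (-0.30, 0.0639), DESeq2 (-0.36, 0.0986), and the edgeR fit without doxycycline replicate 1 (-0.27, 0.136), doxycycline replicate 2 (-0.36, 0.0518), DMSO replicate 2 (-0.26, 0.151) or DMSO replicate 3 (-0.34, 0.0571). KRT10 overlaps TMEM99 on the opposite strand, and the strand setting of the counting is not given, so reads of the overlap are uncertain. TMEM99 stood at 2.37 CPM in doxycycline and 2.89 CPM in DMSO and was not called (log2 fold change -0.29, edgeR adjusted p = 0.175).

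**Figure D2:**
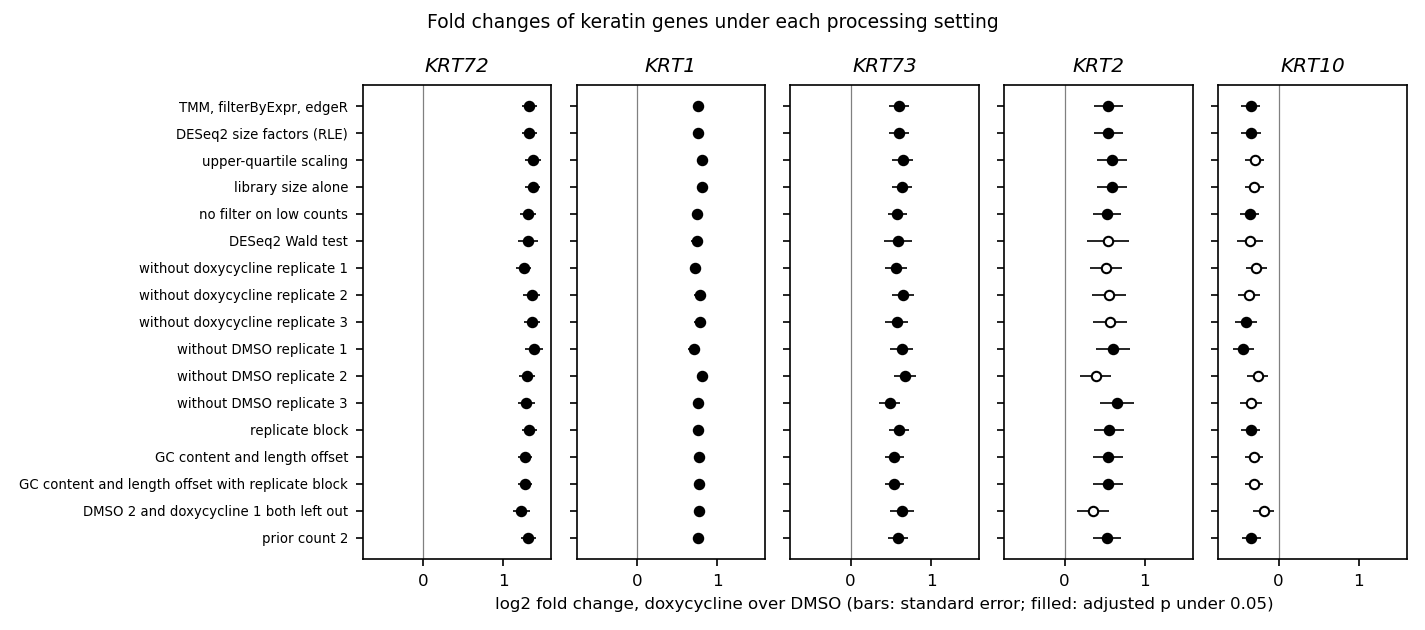
Log2 fold change, doxycycline over DMSO, of KRT72, KRT1, KRT73, KRT2 and KRT10 under the main fit (top row) and 16 alternatives; bars are the standard error, and filled points have an adjusted p under 0.05. KRT72, KRT1 and KRT73 are filled in every row, KRT2 is open in 6 rows and KRT10 in 10.

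KRT8, KRT86 and KRT18 could not be compared. KRT8 (ENSG00000170421) had 0, 1 and 0 counts in doxycycline and 0, 1 and 1 counts in DMSO. KRT86 (ENSG00000170442) had 1 count in doxycycline replicate 2 and 0 in the other 5 libraries, and KRT18 (ENSG00000111057) had 0 counts in all 6. Each value is under the floor of 3 counts, so no fold is given. These 3 genes also share more sequence with other genes than the 5 tested ones do. Of the 50-base windows in the longest GENCODE 29 transcript, 40.5% of those of KRT86, 22.1% of KRT8 and 21.7% of KRT18 occur word for word in a transcript of another gene, against 0% for KRT1, KRT2 and KRT10, 0.458% for KRT72 and 1.52% for KRT73. How reads that match several genes were handled is not given in the sources used here, and the part of such reads in these low counts was not tested.

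Named pseudogenes of KRT8 and KRT18 did carry counts. The 50 KRT8 pseudogene entries summed to 272, 255 and 256 counts in doxycycline and 232, 196 and 171 counts in DMSO, so that the summed groups did not overlap in raw counts; the doxycycline libraries were also the deeper ones. Most of these counts came from KRT8P12, at 6.14 CPM in doxycycline and 5.60 CPM in DMSO (log2 fold change 0.13, edgeR adjusted p = 0.425). KRT8P46 stood at 2.14 CPM in doxycycline and 1.55 CPM in DMSO (log2 fold change 0.47, edgeR adjusted p = 0.0636), and passed under scaling by upper quartile (0.52, 0.0421) or by library size (0.51, 0.0450). The 74 KRT18 pseudogene entries summed to 52, 46 and 49 counts in doxycycline and 39, 34 and 42 counts in DMSO. Of 137 keratin pseudogene entries, 96 had 0 counts, 6 were tested, and 0 were called by edgeR or by DESeq2 at an adjusted p under 0.05, while 3 had an unadjusted edgeR p under 0.05 (KRT8P46, KRT8P39 and KRT17P1). The other 4 tested were KRT8P39 (log2 fold change 0.89, edgeR adjusted p = 0.0949), KRT17P1 (0.50, 0.112; 0.80 and 0.0346 without DMSO replicate 1), KRT18P34 (0.10, 0.870) and KRT8P33 (0.08, 0.886). The 3 pseudogenes with most counts under the filter were KRT18P63, with 7, 7 and 13 in doxycycline and 8, 3 and 10 in DMSO, KRT18P4, with 5, 7 and 5 in doxycycline and 3, 5 and 10 in DMSO, and KRT18P39, with 6, 6 and 5 in doxycycline and 2, 5 and 5 in DMSO; their raw counts overlapped or touched between the groups.

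Per length of transcript, the 5 genes were ordered as follows. KRT1 stood at 22.3 ± 0.965 CPM per kilobase in doxycycline and 13.1 ± 0.928 in DMSO, above 75% of tested genes in its mean over all libraries. KRT72 came next, at 8.15 ± 0.677 CPM per kilobase in doxycycline and 3.25 ± 0.224 in DMSO, near the middle of all tested genes (percentile 50.1). In doxycycline KRT73 and KRT10 could not be ordered, at 2.63 ± 0.195 and 2.40 ± 0.218 CPM per kilobase, because their libraries overlapped. In DMSO KRT10 was next to KRT72, at 3.06 ± 0.377, with libraries that overlapped those of KRT72, and above KRT73, at 1.73 ± 0.251. KRT2 was the lowest of the 5 at 1.08 ± 0.041 CPM per kilobase in doxycycline and 0.738 ± 0.151 in DMSO (percentile 19.7 of tested genes; SD, n = 3 each throughout).

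The 4 genes that rose are consecutive keratin genes on the minus strand of chromosome 12, in the order KRT72, KRT73, KRT2 and KRT1, with the antisense gene KRT73-AS1 and the pseudogene KRT128P between them. Together they held 88.4%, 87.1% and 86.9% of all counts on named keratin genes in doxycycline replicates 1, 2 and 3, and 79.7%, 78.1% and 78.2% in DMSO replicates 1, 2 and 3. Their summed raw counts were 2236, 2028 and 2092 in doxycycline and 1092, 1133 and 1009 in DMSO. Every other gene of the cluster, from KRT80 at one end to KRT18 at the other, had at most 62 counts over all 6 libraries, apart from KRT73-AS1 with 236. The neighbours of the block, KRT74 and KRT77, had 26 counts each. EIF4B, a translation initiation factor just past KRT18, stood at 595 CPM in doxycycline and 623 CPM in DMSO (log2 fold change -0.07, edgeR adjusted p = 0.345).

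**Figure D3:**
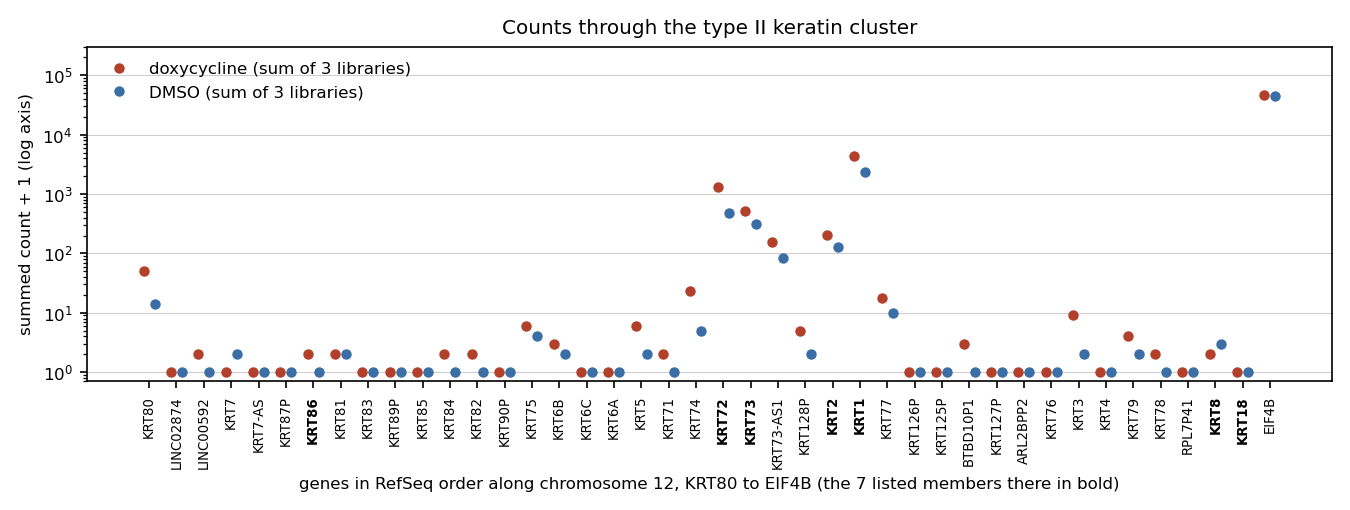
Counts summed over the 3 doxycycline and the 3 DMSO libraries, plus 1 and on a log axis, for genes in RefSeq order along the type II keratin cluster of chromosome 12; the 7 listed genes that lie there are in bold. KRT72, KRT73, KRT2 and KRT1 stand together above the rest of the cluster, while KRT86, KRT8 and KRT18 lie at or near 0.

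KRT73-AS1 is annotated on the opposite strand, across part of KRT73 and 72 bases of KRT72. It had 51, 61 and 40 counts in doxycycline and 32, 29 and 23 counts in DMSO, with no overlap between the groups. It averaged 1.92 CPM in doxycycline and 1.16 CPM in DMSO, a log2 difference of 0.72 (SE 0.220, edgeR adjusted p = 0.0149). KRT73-AS1 was no longer called on leaving out doxycycline replicate 2 (0.56, edgeR adjusted p = 0.101) or DMSO replicate 3 (0.63, 0.0557), on dropping DMSO replicate 2 together with doxycycline replicate 1 (0.74, 0.0694) or with DESeq2 (0.72, 0.0785). Libraries were strand-specific per the labels, but since the counting may not have used strand, reads of KRT73 and of KRT73-AS1 cannot be told apart with certainty.

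Promoter windows of RefSeq (GRCh38.p14, from 250 bases before to 50 after the annotated start) were held for 4 of the 8 genes. None was held for KRT72 or KRT1. The windows of KRT73 and KRT2, which rose, and of KRT10, which fell, are shown so that their start regions can be read side by side. The KRT2 call was lost in 6 and the KRT10 call in 10 of 16 alternative settings. They are printed 5′ to 3′ on the minus strand, and capitals mark matches to TATAAA, a core promoter element, or to AGATAA, which factors of the GATA family bind, on the strand shown.
KRT73, chr12:52618510-52618809: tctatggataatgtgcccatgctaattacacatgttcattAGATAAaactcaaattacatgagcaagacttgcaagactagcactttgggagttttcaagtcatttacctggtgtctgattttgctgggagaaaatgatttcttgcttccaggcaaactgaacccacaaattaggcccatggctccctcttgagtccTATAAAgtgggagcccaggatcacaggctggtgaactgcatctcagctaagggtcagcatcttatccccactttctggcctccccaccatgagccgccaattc
KRT2, chr12:52652162-52652461: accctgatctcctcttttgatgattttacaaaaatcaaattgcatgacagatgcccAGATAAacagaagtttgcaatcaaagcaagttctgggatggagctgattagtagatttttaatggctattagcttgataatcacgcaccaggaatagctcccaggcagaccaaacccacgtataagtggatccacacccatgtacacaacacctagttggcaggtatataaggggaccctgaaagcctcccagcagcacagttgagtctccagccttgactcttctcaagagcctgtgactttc
KRT10, chr17:40822565-40822864: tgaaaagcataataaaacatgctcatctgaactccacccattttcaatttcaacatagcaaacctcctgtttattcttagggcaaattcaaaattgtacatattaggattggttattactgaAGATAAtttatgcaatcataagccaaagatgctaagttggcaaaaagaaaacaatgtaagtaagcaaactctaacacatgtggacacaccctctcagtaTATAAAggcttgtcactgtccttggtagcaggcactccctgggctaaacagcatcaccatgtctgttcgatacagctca

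AGATAA was present in 3 of the 4 windows, those of KRT73, KRT2 and KRT10, and in 10.3% of all 35116 promoter windows of the table. TATAAA was present in 2, those of KRT73 and KRT10, and in 11.5% of all windows. The E-box CACGTG, which MYC and MAX bind, was in 0 of the 4 and in 7.26% of all windows. GGGCGG (a GC box), TGTGGT (RUNX factors) and TGGGAA (RBPJ) were also in 0 of the 4, and in 45%, 13.1% and 24% of all windows. Both strands were searched, and no printed matches overlapped. A match says only that the letters are there, and a gap says only that these letters are missing from this window. The window of KRT8, with 0 matches, is not printed.

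Ratios between these genes within a library do not depend on how libraries are scaled. The log2 ratio of KRT72 to KRT1 counts was -1.67, -1.76 and -1.78 in doxycycline replicates 1, 2 and 3, and -2.08, -2.44 and -2.37 in DMSO replicates 1, 2 and 3. It averaged -1.74 ± 0.056 in doxycycline and -2.30 ± 0.192 in DMSO (SD, n = 3 each), and the groups did not overlap: KRT72 gained on KRT1 by 0.56 on the log2 scale. KRT72 gained on KRT73 as well, with a log2 ratio of 1.34 ± 0.107 in doxycycline and 0.62 ± 0.196 in DMSO, and on KRT2, with 2.66 ± 0.065 in doxycycline and 1.90 ± 0.304 in DMSO; neither pair of groups overlapped. With 3 libraries a group, the smallest two-sided p of an exact permutation test is 0.1, so none is given. KRT72 was the largest riser among tested genes of a list picked with this contrast known. Its gains on KRT1, KRT73 and KRT2 restate the fold changes given above, and are no further support.

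Among KRT1, KRT73 and KRT2 the ratios overlapped between groups. The log2 ratio of KRT1 to KRT73 averaged 3.07 ± 0.086 in doxycycline and 2.91 ± 0.229 in DMSO, and that of KRT73 to KRT2 averaged 1.33 ± 0.104 in doxycycline and 1.28 ± 0.500 in DMSO (SD, n = 3 each). No unequal change of these 3 was detectable at this depth, where KRT2 had as few as 33 counts in a library. The epidermal pair KRT1 and KRT10 parted: the log2 ratio was 3.64, 3.35 and 3.28 in doxycycline and 2.39, 2.24 and 2.30 in DMSO, with no overlap and a difference of 1.11. Every one of the 4 chromosome 12 genes gained on KRT10, by 0.91 for KRT2, 0.95 for KRT73, 1.11 for KRT1 and 1.67 for KRT72. These gains restate the rises of the 4 genes and the fall of KRT10 given above, and are no further support. The KRT10 call was lost in 10 of 16 alternative settings.

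**Figure D4:**
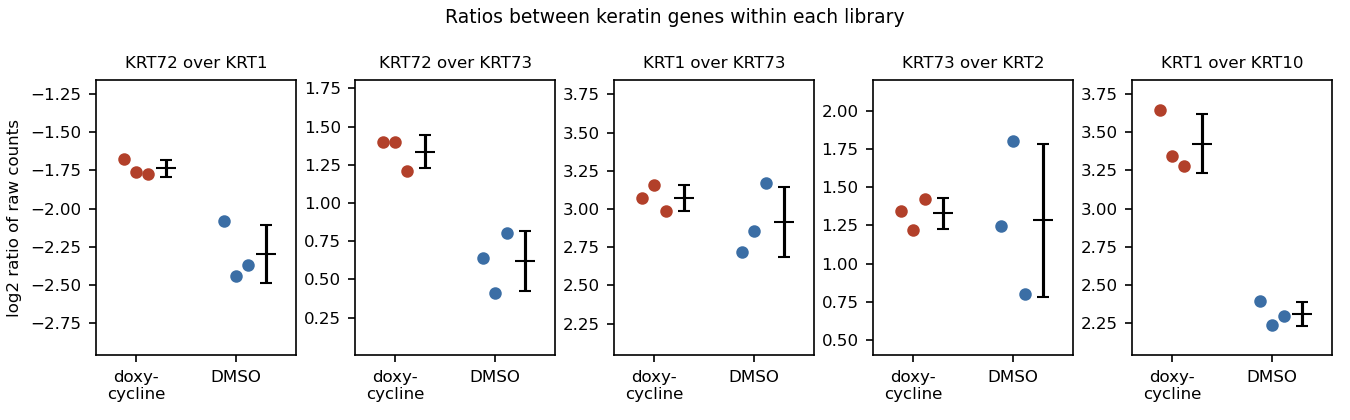
Log2 ratio of raw counts between pairs of keratin genes in each doxycycline and DMSO library (points), with the mean and SD (black, n = 3 each); each panel spans the same height on its own scale. The groups are apart for KRT72 over KRT1, KRT72 over KRT73 and KRT1 over KRT10, and overlap for KRT1 over KRT73 and KRT73 over KRT2.

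The other keratin genes, a list defined by name alone, were mostly silent. Of 57 entries, 35 had 0 counts in every library and 2 were tested. KRT80, a type II chain at the far end of the cluster, had 20, 17 and 12 counts in doxycycline and 6, 4 and 3 counts in DMSO, with no overlap. It rose to 0.619 CPM in doxycycline, against 0.178 CPM in DMSO, a log2 difference of 1.75 (SE 0.419, edgeR adjusted p = 0.00259). The fit without a filter gave KRT80 1.74, and DESeq2 returned no adjusted p for it. KRT222, a keratin-like gene of the type I cluster, stood at 4.80 CPM in doxycycline and 5.11 CPM in DMSO and was not called (log2 fold change -0.09, edgeR adjusted p = 0.623). Of tested genes under 1 CPM, the level of KRT80, 8.58% were called higher and 0.809% lower, and 19.2% were higher with no overlap. KRT80 passed the filter on low counts through its doxycycline libraries alone. Its call and its lack of overlap are therefore given as a description and lend no support to the result of the listed keratins.

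The 55 entries under the filter had in sum 24, 27 and 21 counts in doxycycline and 5, 9 and 10 counts in DMSO. In CPM the summed level was 2.71-fold higher in doxycycline, from 72 counts there and 24 counts in DMSO. Over all 48185 genes under the filter the same ratio was 1.24, so low counts as a whole also stood higher in the doxycycline libraries. The 3 keratins with most counts among the 55 were KRT74, with 2, 11 and 9 in doxycycline and 1, 0 and 3 in DMSO, KRT77, with 5, 5 and 7 in doxycycline and 1, 4 and 4 in DMSO, and KRT3, with 4, 1 and 3 in doxycycline and 0, 1 and 0 in DMSO. KRT74 and KRT77 flank the block that rose. The groups of KRT77 did not overlap, as held for 9.15% of genes under the filter with at least 6 counts. Without the filter KRT74 was called as higher (edgeR adjusted p = 0.0269), although its groups overlapped.

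**Figure D5:**
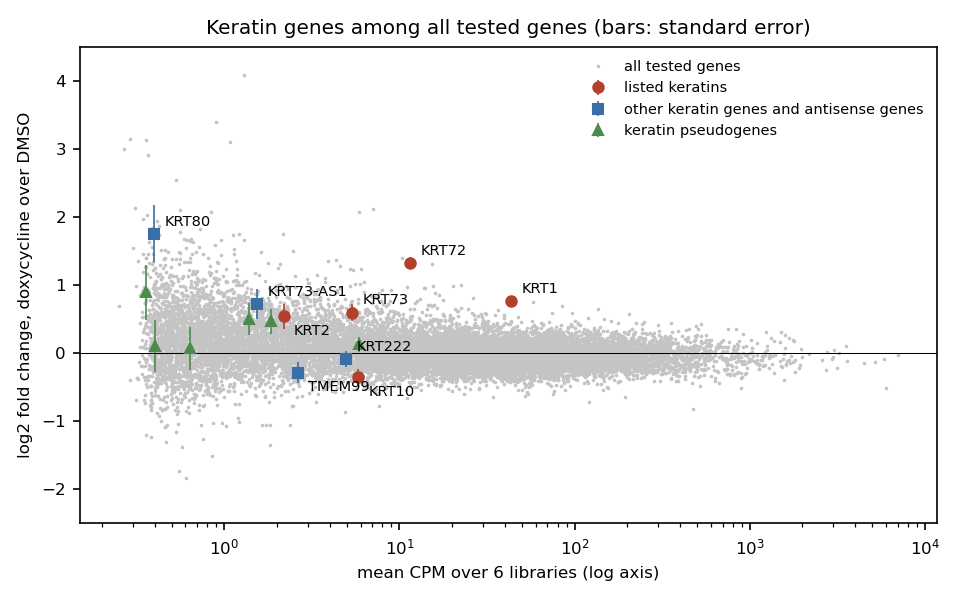
Log2 fold change, doxycycline over DMSO, against mean CPM (log axis) for all tested genes (grey), with the listed keratins, other keratin and antisense genes, and keratin pseudogenes marked; bars are the standard error. KRT72 at 1.32 and KRT1 at 0.77 stand above most genes of like level, KRT10 at -0.35 lies below 0, and the scatter of all genes widens towards low CPM.

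GC content moved with the fold changes of all genes, and the keratin transcripts lie on the GC-rich side. The longest transcripts of KRT72, KRT73, KRT2, KRT1 and KRT10 have 58.8%, 56.9%, 53.7%, 52.6% and 52.0% GC. Among tested genes of at least 1 CPM, those with 55 to 60% GC had a median log2 fold change of 0.09 and 27% were called higher, while those with 50 to 55% had 0.02 and 16.5%. With GC content and length fitted out, KRT72 was at 1.27, KRT1 at 0.78, KRT73 at 0.54 and KRT2 at 0.54, all still called. KRT10 was at -0.30 and no longer called (edgeR adjusted p = 0.0637).

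Of other intermediate filament genes, 11 of a list of 18 were tested, and 2 rose and 1 fell, with a median log2 fold change of 0.00. Among all tested genes 13.8% were called higher and 15.5% lower. VIM, which encodes vimentin, stood at 684 CPM in doxycycline and 716 CPM in DMSO and was not called (-0.07, edgeR adjusted p = 0.360). LMNA, which encodes the nuclear lamins A and C, rose to 11.8 CPM in doxycycline, against 6.18 CPM in DMSO, with 328, 289 and 320 counts in doxycycline and 171, 145 and 132 counts in DMSO. Its log2 fold change was 0.93 (SE 0.099, edgeR adjusted p = 2.68e-07), and it was called in all 15 alternatives run for it. Of the B-type lamins, LMNB1 fell by 0.16 on the log2 scale to 258 CPM in doxycycline, against 289 CPM in DMSO (edgeR adjusted p = 0.0232), a call lost in 5 of 15 alternatives, among them the fit without doxycycline replicate 1 (-0.11, adjusted p = 0.171) and without DMSO replicate 3 (-0.13, 0.0698). LMNB2 stood at 242 CPM in doxycycline and 257 CPM in DMSO (-0.09, edgeR adjusted p = 0.185) and passed as lower with GC content and length fitted out (-0.26, adjusted p = 6.49e-05).

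Of 12 tested genes from a list of 25, mostly for desmosomes and for proteins that link filaments, 5 rose and 2 fell. Their median log2 fold change was 0.11, and among all tested genes 13.8% were called higher and 15.5% lower. The 12 include TRADD, KRTCAP2 and KRTCAP3, which are neither desmosome nor linker genes. TRADD was among the 5 that rose (0.31, edgeR adjusted p = 0.0173), and KRTCAP2 and KRTCAP3 were not called. Another 10 of the 25 had 0 counts in every library, the desmosome genes DSP, DSG1 and PKP3 among them. PLEC, the giant linker plectin, rose to 165 CPM in doxycycline, against 106 CPM in DMSO (0.64, SE 0.049, edgeR adjusted p = 7.26e-10); with GC content and length fitted out its change was 0.26 and still called. JUP, which encodes plakoglobin, rose to 4.41 CPM in doxycycline, against 2.33 CPM in DMSO (0.92, SE 0.146, edgeR adjusted p = 4.66e-05). EVPL, which encodes envoplakin, rose by 0.33 to 226 CPM in doxycycline, against 180 CPM in DMSO, and MACF1, a linker of actin and microtubules, rose by 0.24 to 258 CPM in doxycycline, against 218 CPM in DMSO (edgeR adjusted p = 3.28e-05 and 6.61e-04). With GC content and length fitted out neither was called, EVPL at 0.07 and MACF1 at 0.08 (adjusted p = 0.249 and 0.137). The pair that fell, chosen for mention after their values were seen, was DSG2 and PKP4. DSG2, which encodes the desmosomal cadherin desmoglein 2, fell to 26.2 CPM in doxycycline, against 33.1 CPM in DMSO (-0.34, SE 0.070, edgeR adjusted p = 6.89e-04), and was called in all 15 alternatives run for it. PKP4, which encodes plakophilin 4, fell to 65.4 CPM in doxycycline, against 74.3 CPM in DMSO (-0.19, SE 0.053, edgeR adjusted p = 0.00938). The PKP4 call was lost without doxycycline replicate 3 (adjusted p = 0.0559), without DMSO replicate 1 (0.0519) and under scaling by upper quartile (-0.14, 0.0538). PNN, which encodes the keratin-binding protein pinin, stood at 277 CPM in doxycycline and 280 CPM in DMSO (-0.02, edgeR adjusted p = 0.825).

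Genes of the cornified envelope, the end stage of keratinocytes, were nearly absent. Of 21 entries 14 had 0 counts in every library, and 3 were tested. FLG, which encodes filaggrin, had 43, 51 and 64 counts in doxycycline and 23, 32 and 29 counts in DMSO (log2 fold change 0.77, SE 0.220, edgeR adjusted p = 0.00951). TCHH, which encodes trichohyalin of the inner root sheath, had 74, 80 and 69 counts in doxycycline and 57, 39 and 37 counts in DMSO (0.61, SE 0.179, edgeR adjusted p = 0.0115). Both rose, and each call was lost in 5 of 15 alternatives. For FLG these included the fits without doxycycline replicate 3 (0.62, adjusted p = 0.0736) and without DMSO replicate 1 (0.62, 0.0696), and for TCHH the fit without DMSO replicate 2 (0.52, 0.0509). With GC content and length fitted out FLG was at 0.57 (adjusted p = 0.0701) and TCHH at 0.45 (0.0745). TGM1, a transglutaminase of the envelope, stood at 2.85 CPM in doxycycline and 2.52 CPM in DMSO and was not called (0.17, edgeR adjusted p = 0.454). Of tested genes at 1 to 10 CPM, 16.1% were called higher.

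Of epithelial markers at 1 CPM or more, MUC1 rose to 5.63 CPM in doxycycline, against 3.76 CPM in DMSO (log2 fold change 0.58, edgeR adjusted p = 0.00222), and was not called with GC content and length fitted out (0.33, adjusted p = 0.0717). The claudins CLDN4 and CLDN7 stood at 1.40 and 1.16 CPM in doxycycline and at 1.13 and 0.960 CPM in DMSO, and neither was called (edgeR adjusted p = 0.330 and 0.498). Of B cell markers, CD79A, a chain of the B cell receptor complex, rose to 6.02 CPM in doxycycline, against 3.09 CPM in DMSO (log2 fold change 0.96, edgeR adjusted p = 5.38e-05). CD79B and PAX5 were not called (edgeR adjusted p = 0.542 and 0.125), and MS4A1, a defining B cell gene, had 0 counts. The fibroblast marker COL1A1 rose to 49.6 CPM in doxycycline, against 40.1 CPM in DMSO (0.31, edgeR adjusted p = 3.73e-04; 0.08 and 0.239 with GC content and length fitted out), while COL1A2, COL3A1 and LUM had 0 counts; the 6 fibroblast markers summed to between 48.0 and 53.6 CPM in doxycycline and between 40.3 and 40.7 CPM in DMSO. Neither the 5 myeloid nor the 6 erythroid markers had enough counts to test. The myeloid list summed to between 0.897 and 1.03 CPM in doxycycline and between 0.437 and 0.785 CPM in DMSO, and the erythroid list to between 0.0374 and 0.0762 CPM in doxycycline and between 0.0437 and 0.119 CPM in DMSO. The 21 cornified envelope genes summed to between 7.25 and 8.31 CPM in doxycycline and between 5.15 and 6.03 CPM in DMSO. The epithelial, cornified envelope, fibroblast and myeloid sums were higher in every doxycycline library than in every DMSO library, as KRT72, KRT1, KRT73 and KRT2 were. The erythroid sums overlapped. Most of the fibroblast sum was COL1A1. The myeloid sum rested on 27, 27 and 24 counts in doxycycline and 17, 19 and 10 in DMSO. Within it ITGAM was higher in CPM in every doxycycline library, with 6, 15 and 9 counts in doxycycline and 2, 4 and 3 in DMSO. CSF1R was lower in CPM in every doxycycline library, with 2, 1 and 2 counts in doxycycline and 4, 2 and 2 in DMSO. Most of these CSF1R counts are under the floor of 3, and in raw counts the groups touched. Of genes under the filter with at least 6 counts, 9.15% were higher and 5.32% lower with no overlap. Over all genes under the filter the summed CPM was also 1.24-fold higher in doxycycline. The part of these marker genes in the keratin result was not tested.

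Of 8 tested genes next to the keratin clusters in RefSeq order, 1 rose and 2 fell, SMARCE1 and SPRYD3, with a median log2 fold change of -0.08, beside 13.8% called higher and 15.5% lower among all tested genes. SPRYD3 fell by 0.20 (edgeR adjusted p = 0.0158), a call lost in 5 of 15 alternatives, among them those without doxycycline replicate 1 (adjusted p = 0.0639) or 3 (0.0554). TNS2 (TENC1 in the deposited table), which encodes a tensin and lies beyond EIF4B, rose to 3.07 CPM in doxycycline, against 1.82 CPM in DMSO (0.76, SE 0.176, edgeR adjusted p = 0.00199). SMARCE1, a chromatin remodelling subunit next to KRT222, fell by 0.17 to 147 CPM in doxycycline, against 164 CPM in DMSO (edgeR adjusted p = 0.0179), a call lost in 7 of 15 alternatives, among them those without doxycycline replicate 2 (adjusted p = 0.0576), doxycycline replicate 3 (0.128) or DMSO replicate 3 (0.0657). EIF1, at the far side of the type I cluster, stood at 530 CPM in doxycycline and 562 CPM in DMSO and was not called (-0.09, edgeR adjusted p = 0.231).

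By distance between centred log2 CPM profiles over the 6 libraries, the 5 genes nearest to KRT72 were ACE, FAM83A, LGALS1, SH2D2A and an entry that the deposited table names MIR663A. That entry (ENSG00000227195) has a longest transcript of 1213 bases, so its counts are not those of the mature microRNA. Their distances ran from 0.193 for ACE to 0.328 for that entry, and Pearson's r with KRT72 from 0.994 for FAM83A to 0.980 for that entry over 6 libraries that share 2 treatments. ACE, the angiotensin-converting enzyme, had 5.60 ± 0.257 CPM in doxycycline and 2.18 ± 0.280 CPM in DMSO (SD, n = 3 each), which is 1.36 apart on the log2 scale. FAM83A stood at 7.63 CPM in doxycycline and 3.28 CPM in DMSO, and LGALS1, which encodes galectin-1, at 7.31 CPM in doxycycline and 3.10 CPM in DMSO. Since any gene with a like fold change is near by this measure, the likeness describes the contrast and nothing more.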

How the data were processed

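Read counts per gene for 6 libraries were used as the authors deposited them, without normalization; per the submitters' processing notes the tools were STAR 2.5.2a, featureCounts and DESeq2 1.12.4 and the build hg19, without roles. For each gene the authors' deposited DESeq2 table holds a mean normalized signal. It further holds the log2 fold change the authors found, its error, a test score of theirs, and raw and adjusted p-values as deposited. Annotation, strand setting and treatment of reads matching several genes are not given in the sources used here.

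Genes were filtered with filterByExpr (15492 of 63677 kept, at least 99.88% of counts), scaled with TMM and tested by quasi-likelihood in edgeR 4.0.16 under R 4.3.3, treatment as sole term, with Benjamini-Hochberg adjustment over all tested genes. SE is the size of the log2 fold change over the square root of F. Transcript length and GC content came from GENCODE 29 (97.1% of tested genes matched). That annotation and RefSeq's are of GRCh38, so apart from promoter windows no coordinates are given. For the GC and length alternative, splines with 5 degrees of freedom each were fitted per library and used as an offset. DESeq2 1.42.0 was an alternative. The fit was tested on simulated data. Named were the 8 genes; other keratin, pseudogene and antisense genes past the filter, with the 3 of most counts below it; in each further list, calls of at least 1.5-fold and the 3 highest genes; markers of other cells at 1 CPM or more; and the 5 profiles nearest to KRT72. A marker gene of the B cell list, and the sums and counts that include it, are not reported here. Members and lists were chosen with earlier results of these data known.

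Replicate numbers are shared by the groups, but the correlations of deviations were -0.04, -0.0481 and 0.01 for same-numbered libraries, so the numbers were not taken as pairs. No 2 libraries were alike beyond the rest (r of log2 CPM from 0.991 to 0.996).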

Additional observations from a re-analysis of the deposited data

How the results depend on the processing

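KRT72, KRT1 and KRT73 kept their direction and their call under all 16 alternatives, and KRT2 and KRT10 kept their direction. The number of the 8 keratins called was 5 in the main fit, 3 with DESeq2, 3 on dropping DMSO replicate 2 together with doxycycline replicate 1, and 3 to 5 when single libraries were left out. Among the other keratin genes the number called was 1, against 2 with no filter on low counts (KRT80 and KRT74) and 0 with DESeq2, which returned an adjusted p for 1 of them, not KRT80. Among the partner lists, 16 of 38 were called (11 higher, 5 lower; 29.3% of all genes were called), against 10 of 37 with GC content and length fitted out (5 higher, 5 lower; 22.2% of all genes) and 10 with the replicate block added to that fit; upper-quartile scaling gave 12 higher and 1 lower, and library size alone 12 and 2. With the replicate block alone 4206 genes were called, against 4545, 2006 of them higher, and 5 of the 8 keratins as in the main fit; the pairing by number was not borne out, as no same-numbered pair of libraries correlated above 0.1. Upper-quartile scaling called 2871 genes higher and 1585 lower, and library size alone 2758 and 1606, against 2137 and 2408, with median shifts of 0.05 and 0.04. Directions that turned were all of genes not called: KRT18P34 (-0.10 to 0.29 on leaving out single libraries), KRT8P33 (-0.11 to 0.28), LCK (-0.0049 to 0.070) and PNN (-0.058 to 0.0021); VIM, EIF1, CD3E and PNN with GC content and length fitted out (0.017, 0.022, 0.013 and 0.12, and 0.018, 0.020, 0.013 and 0.12 with the replicate block added); CD3E with upper-quartile scaling (0.00067); and PNN with that scaling (0.030) and library size alone (0.026). Summed with its pseudogenes KRT8 averaged 9.88 CPM and KRT18 1.85 CPM in doxycycline. In CPM these sums were 1.19-fold and 1.16-fold higher in doxycycline than in DMSO. Of the KRT8 sum of 784 counts in doxycycline and 601 in DMSO, pseudogenes held 783 and 599. The KRT18 sum, 147 counts in doxycycline and 115 in DMSO, was from pseudogenes alone. The causes were not tested. KRT8, KRT86 and KRT18 stayed under 3 counts in every library, so no difference between the groups was detectable for them.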
